A study of Mus musculus with 4 samples.

Results

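The 5′ ends of 6 imprinted genes, Plagl1, Meg3, Airn, Impact, Peg10 and Sgce, were followed in mouse Chr4-cl KO and WT ES cells by RRBS-seq, a method that sequences CpG-rich MspI fragments after bisulfite treatment so that methylated and unmethylated cytosines can be told apart. The 6 genes were chosen from earlier results of these data for low methylation in the KO samples. The difference between KO and WT cells is therefore described here and was not tested. Not all were near 0%, as Airn averaged 9.21% in KO serum. Meg3 had no site with 10 reads in KO 2i + Vitamin C. CpG sites within 1 kb of the 5′ end of each gene (mm9, GENCODE vM1) with at least 10 reads in a sample were taken as members. Of 981048 CpG sites with at least 10 reads in any sample, 74 distinct sites met this rule, at 6 of 37310 annotated genes. Peg10 and Sgce start 102 bp apart on opposite strands and share all of their 14 sites, so the genes represent 5 loci.

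The Chr4-cl KO line was made from ES cells of B6;129 mice with a cre/ERT transgene at ROSA26, and it lacked a cluster of KRAB-ZFP genes on chromosome 4 that was removed with CRISPR/Cas9. Each genotype was grown in serum (FCS and LIF) or for 1 week in 2i + Vitamin C, a medium that lowers DNA methylation across the genome. This gave 4 samples with 1 library per condition, and the study's methods describe KO and WT lines as individually picked clones, though not which clones gave these libraries. An effect of the deletion and a difference between clones cannot be told apart in these samples.

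The reads summed over CpG sites were between 42684672 and 90649194 per library, and sites that reached 10 reads had a median coverage between 25 and 50. In the 2253704 bp between the gRNA target sites on chromosome 4, 820 reads were left in KO serum and 1467 in KO 2i + Vitamin C, against 85282 and 105120 in the WT libraries. The genome-wide mean over 400195 sites with 10 reads in each library was 27.4% (WT serum), 30.5% (KO serum), 13.9% (WT 2i + Vitamin C) and 12.2% (KO 2i + Vitamin C).

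Imprinted genes are expressed from only the maternal or only the paternal copy. Their control regions carry DNA methylation on a single parental allele, so that bulk DNA from a normal diploid cell reads intermediate methylation. Marks set in the germline are kept after fertilization through the wave of demethylation in the early embryo by KRAB-ZFPs such as ZFP57, which recruit the co-repressor KAP1 to a methylated TGCCGC motif. Zfp57 itself lies on chromosome 17 and not in the deleted cluster. At Plagl1, Airn, Impact and Peg10/Sgce the maternal allele is normally methylated and the paternal allele is expressed, whereas at Meg3 the paternal allele is methylated and the maternal allele is expressed. The Meg3 promoter gains its mark only after fertilization, under control of an intergenic germline region of the same locus.

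The stretches that carry the measurements are given here on the + strand of mm9, which is the coding strand of Plagl1, Meg3, Airn and Peg10. Capitals mark the CpG sites with at least 10 reads in both serum samples, and other CpG sites are in lower case. The Plagl1 stretch (chr10:12810429-12810620) runs from the promoter into the first annotated exon, and that of Meg3 (chr12:110779129-110779281) spans the start of the transcript. These 5 stretches were chosen because they hold all member sites measured in both serum samples outside Impact, and the second Airn stretch goes on past 1 kb. The Airn stretches (chr17:12934456-12934616 and chr17:12935102-12935234) lie in introns of both Airn and Igf2r, which are transcribed from opposite strands. The Peg10 stretch (chr6:4697355-4697490) lies in an exon of Peg10 and upstream of Sgce.
Plagl1: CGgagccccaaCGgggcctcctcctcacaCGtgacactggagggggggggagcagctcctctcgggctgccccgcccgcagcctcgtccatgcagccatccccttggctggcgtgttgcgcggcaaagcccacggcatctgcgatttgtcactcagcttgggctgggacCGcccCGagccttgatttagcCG
Meg3: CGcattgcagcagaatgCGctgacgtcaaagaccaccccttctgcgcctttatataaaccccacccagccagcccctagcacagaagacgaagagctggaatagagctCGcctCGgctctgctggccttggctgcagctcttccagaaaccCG
Airn stretch 1: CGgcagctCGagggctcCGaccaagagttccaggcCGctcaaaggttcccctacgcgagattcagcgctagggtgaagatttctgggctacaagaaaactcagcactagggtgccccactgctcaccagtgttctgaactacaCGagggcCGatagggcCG
Airn stretch 2: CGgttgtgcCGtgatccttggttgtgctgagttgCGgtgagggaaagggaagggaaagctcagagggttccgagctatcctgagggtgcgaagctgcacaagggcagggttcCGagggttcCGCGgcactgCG
Peg10: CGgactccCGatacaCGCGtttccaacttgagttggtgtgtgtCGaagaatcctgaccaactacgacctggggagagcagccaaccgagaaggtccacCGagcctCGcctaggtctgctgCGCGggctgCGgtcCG

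These stretches had a GC content between 58.2% and 68.8%. They held 15 CpG sites at Plagl1, 8 at Meg3, 10 and 9 in the first and second stretch of Airn and 13 at Peg10, of which 6, 5, 7, 7 and 11 were measured in both serum samples. No sequence is shown for Impact. Its 8 member sites lay in an intron of the gene, from 879 to 996 bp downstream of the 5′ end.

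In serum, the mean methylation of each locus was between 45% and 58% in WT cells and between 0% and 9.21% in KO cells. Over the 37 distinct sites covered at least 10-fold in both genotypes, the mean was 52.4% in WT and 3.83% in KO cells, a difference of -48.6 percentage points. All 37 sites were at least 20 points lower in KO cells, and the range of the KO sites did not overlap that of the WT sites. In the whole table, 0.677% of 588613 sites were at least 20 points lower in KO cells in serum and 5.69% were at least 20 points higher. The member count follows from how the genes were chosen. The 37 sites form 6 runs of neighbouring sites no more than 300 bp apart, which can share reads, so they are not independent measurements.

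**Figure D1:**
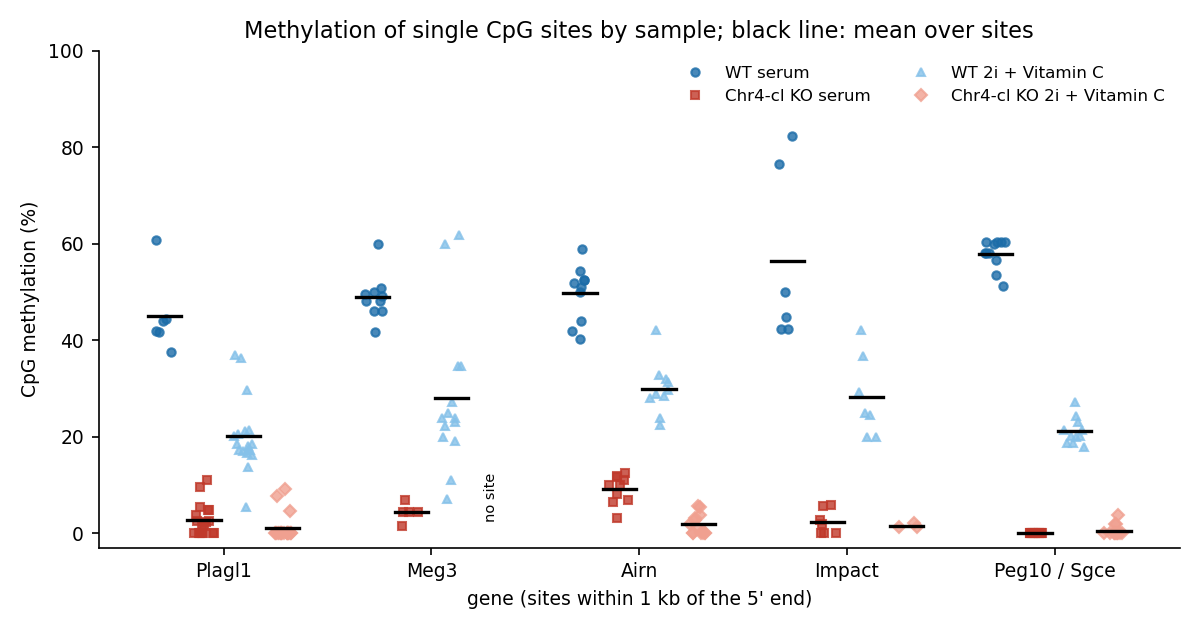
Methylation (%) of single CpG sites with at least 10 reads within 1 kb of the 5′ end of each gene, with 1 point per site, 1 colour per library and a black line at the mean over sites. In serum the KO sites lie at or below 12.5% and the WT sites at or above 37.5%. No Meg3 site reached 10 reads in the KO library of 2i + Vitamin C.

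Peg10, a gene derived from a retrotransposon and needed for the placenta, and Sgce, which encodes the membrane protein epsilon-sarcoglycan, share their promoter region. Their 11 sites with at least 10 reads ranged from 51.2% to 60.5% in WT cells in serum, with a median of 58.1%. In KO cells in serum all 11 sites were at 0%, with 0 methylated among 456 calls. For each gene the site with the highest coverage in its shallowest library is given with its reads. At 57 bp downstream of the Peg10 start, WT cells had 22 methylated of 43 reads (51.2%, 95% Wilson interval 36.8 to 65.4). KO cells had 0 of 45 reads there, which allows a share of up to 6.67%. This was the locus with the lowest KO values in serum.

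Plagl1 encodes a zinc finger transcription factor that restrains cell growth. Its 6 sites with at least 10 reads in WT cells in serum were between 37.5% and 60.9%, and the mean was 45%. The same 6 sites averaged 1.93% in KO cells. A further 12 sites downstream had between 3 and 6 reads in WT cells in serum and could not be compared at 10-fold coverage. In WT cells 11 of their 63 calls were methylated (17.5%), below the level of the 6 deeper sites, and in KO cells they were between 0% and 11.1%. The Plagl1 difference was -43.1 points over the 6 sites, but -26.9 points when sites with at least 5 reads were used. At 101 bp downstream of the start, 43 of 97 reads were methylated in WT cells (44.3%, interval 34.8 to 54.2) and 3 of 79 in KO cells (3.8%, interval 1.3 to 10.6).

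Meg3 is a maternally expressed long non-coding RNA, and it is the only one of these loci whose methylated allele is paternal. In WT cells in serum its 10 sites ranged from 41.7% to 60%, with a median of 48.6%. In KO cells the 5 covered sites ranged from 1.49% to 6.97%. The difference over the 5 shared sites was -44.8 points, within the range of the loci with a maternal mark (-40.5 to -58 points). At 31 bp downstream of the start, 65 of 131 reads were methylated in WT cells (49.6%, interval 41.2 to 58.1) and 9 of 203 in KO cells (4.43%, interval 2.35 to 8.21).

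Airn is a long non-coding RNA that silences Igf2r in cis, and its promoter lies within an intron of Igf2r. Its 10 sites in serum ranged from 40.2% to 58.8% in WT and from 3.25% to 12.5% in KO cells. The KO mean of 9.21% was the highest of the 5 loci in serum. Within Airn the values differed by position. The 7 sites of the first stretch averaged 53% in WT and 10.6% in KO cells, and the 7 sites of the second, of which 4 lie past 1 kb, averaged 42.6% and 5.9%. At 959 bp downstream of the start, 52 of 118 reads were methylated in WT cells (44.1%, interval 35.4 to 53.1) and 10 of 308 in KO cells (3.25%, interval 1.77 to 5.87).

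Impact encodes an inhibitor of the stress kinase GCN2. In WT cells in serum its 6 sites ranged from 42.3% to 82.4% with a median of 47.5%. In KO cells 7 sites ranged from 0% to 5.88%. The 2 highest WT sites, at 888 and 903 bp, had 17 reads each, whereas the sites at 967, 986 and 996 bp had 168, 305 and 305 reads and lay between 42.3% and 44.9%. Impact therefore had the largest difference after Peg10/Sgce when each site was counted once (-54.4 points), but with at least 20 reads per site it was -39.7 points. At 996 bp, 137 of 305 reads were methylated in WT cells (44.9%, interval 39.4 to 50.5) and 32 of 573 in KO cells (5.58%, interval 3.98 to 7.78).

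**Figure D2:**
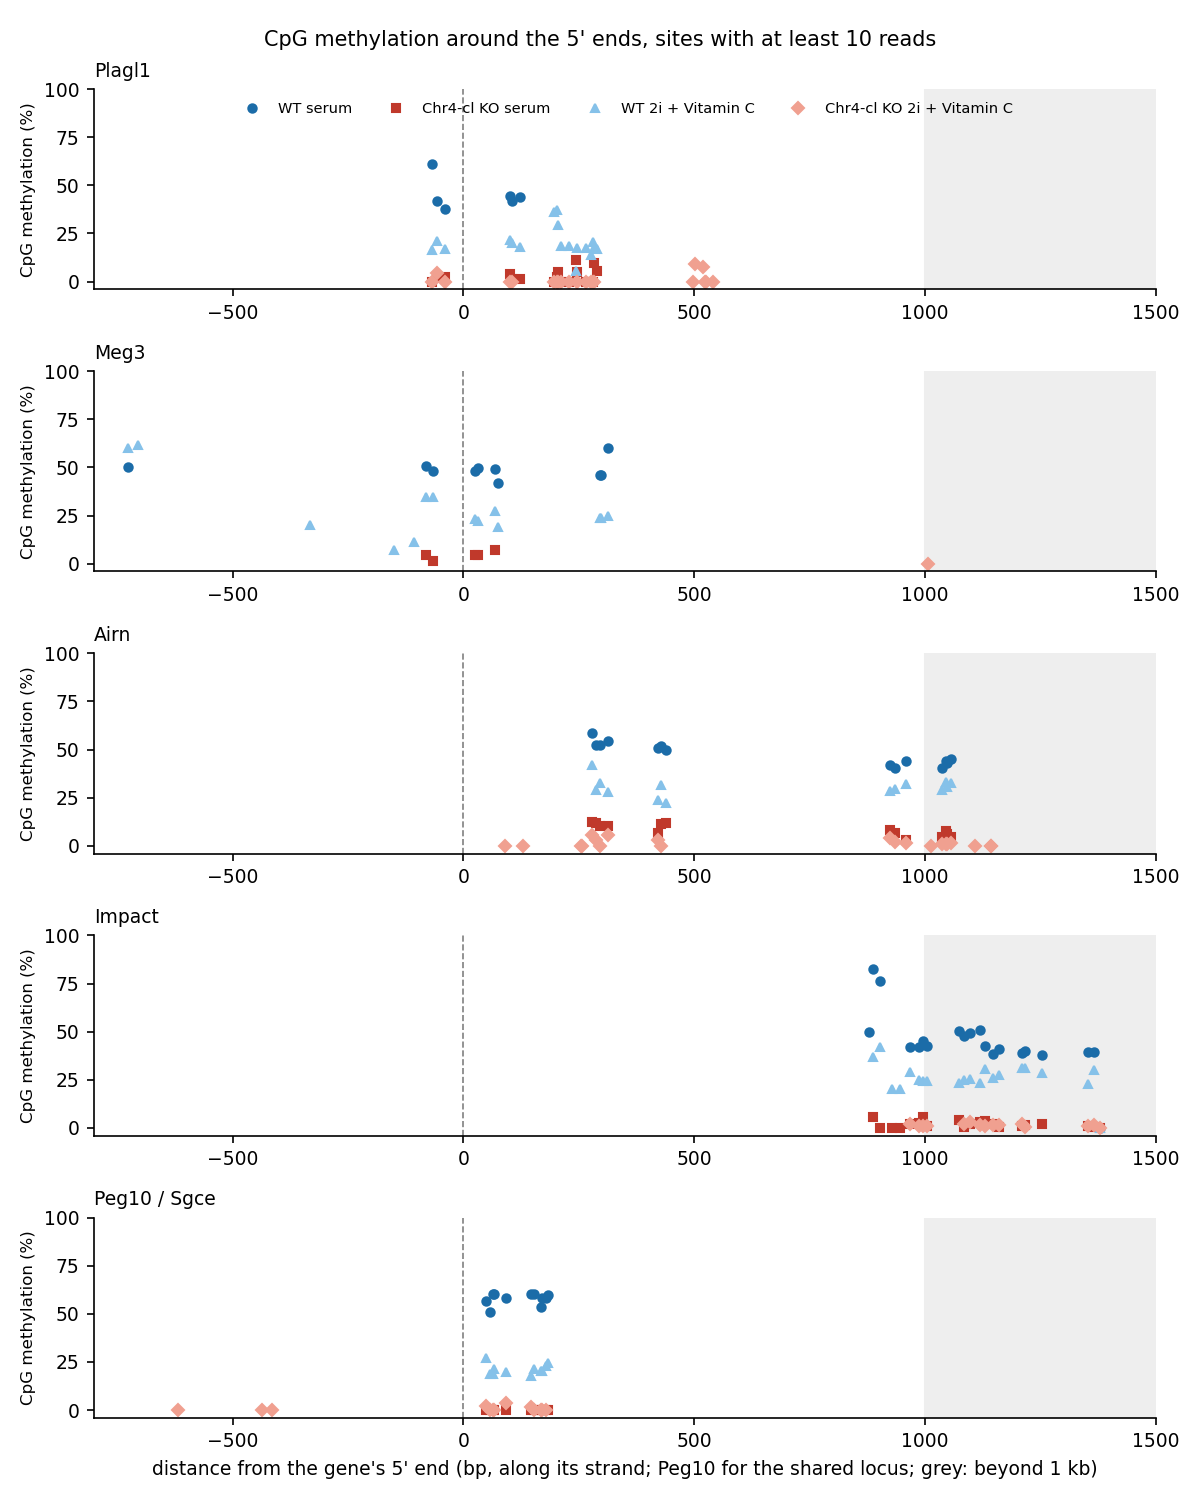
Methylation (%) of each CpG site with at least 10 reads against its distance from the 5′ end (bp, along the gene's strand), with 1 panel per locus and 1 symbol per library, and grey shading beyond 1 kb. WT sites in serum form the upper band at each locus, WT sites in 2i + Vitamin C lie mostly below them, and sites of both KO libraries stay at the bottom, also at the Airn and Impact sites beyond 1 kb.

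The limits of 10 reads and 1 kb split runs of like sites. The last Impact site inside the window, at 996 bp, had 44.9% in WT and 5.58% in KO serum, and the first outside, at 1005 bp, had 42.6% and 0.874%. For Airn the last site inside was at 959 bp and the first outside at 1037 bp, with 40.2% in WT and 4.55% in KO cells. At Meg3 the site at -727 bp had 10 reads in WT cells in serum and was counted there, with 5 methylated, while that at -705 bp had 9 reads, also with 5 methylated, and was not.

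In 2i + Vitamin C, the loci were lower in WT cells than in serum but still above KO cells. The 37 distinct sites covered in both genotypes averaged 24% in WT and 1.11% in KO cells, a difference of -22.9 points. Of these sites, 24 were at least 20 points lower in KO cells and all 37 were lower by some amount. Over all 458443 sites covered in this medium, 3.4% were at least 20 points lower and 1.47% at least 20 points higher in KO cells. Because WT values were lower in this medium, fewer sites could differ by 20 points.

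By locus, the WT mean over sites covered in both genotypes was 30.8% at Airn, 26.3% at Impact, 21.5% at Plagl1 and 20.9% at Peg10/Sgce. The KO means there were 2.71%, 1.56%, 0.303% and 0.755%. Single sites in WT cells in this medium ran from 5.56% to 37% at Plagl1 (18 sites, median 18.3%), from 7.14% to 61.9% at Meg3 (14 sites, median 23.8%), from 22.5% to 42.1% at Airn (10 sites, median 29.2%), from 20% to 42.1% at Impact (7 sites, median 25%) and from 17.8% to 27.3% at Peg10/Sgce (11 sites, median 20.3%). In KO cells the highest site was 9.09% at Plagl1, 5.71% at Airn, 2.15% at Impact and 3.77% at Peg10/Sgce, and the medians were between 0% and 1.36%. At Airn, Impact, Plagl1 and Peg10/Sgce the genotypes did not overlap over sites covered in both, but the genes were chosen for low KO values. Over each library's own sites Plagl1 did overlap, as its lowest WT site was at 5.56% and its highest KO site at 9.09%. The differences were -28.1 points at 9 Airn sites, -24.7 at 3 Impact sites, -21.2 at 15 Plagl1 sites and -20.1 at 10 Peg10/Sgce sites. At the deepest sites, KO cells had 3 methylated of 220 reads at Airn (1.36%, interval 0.465 to 3.93), 3 of 236 at Impact (1.27%, interval 0.433 to 3.67), 0 of 27 at Plagl1, which allows a share of up to 11.1%, and 0 of 52 at Peg10, which allows up to 5.77%. Meg3 could not be compared in this medium. Its 14 sites had at most 3 reads each in KO cells, and none of the 25 calls was methylated, a depth at which no level can be given.

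By the mean over each library's own sites, the order of the 4 libraries was the same at Plagl1, Airn and Impact. It ran from WT serum through WT 2i + Vitamin C and KO serum to KO 2i + Vitamin C. At Plagl1 this set 6 sites in WT serum against 18 in WT 2i + Vitamin C. At Peg10/Sgce the KO libraries were the other way round, at 0% in serum and 0.581% in 2i + Vitamin C, which is 4 methylated of 571 calls. The intervals of both KO libraries overlapped at the deepest sites of Plagl1, Airn and Peg10. At Impact the lower bound in KO serum (3.98%) was just above the upper bound in KO 2i + Vitamin C (3.67%). Over the 37 sites covered in both KO libraries the mean was 3.31% in serum and 1.11% in 2i + Vitamin C. For comparison, 12033 genes had at least 5 sites within 1 kb of the 5′ end in all 4 samples. Their median was 2.34% in KO serum and 1.14% in KO 2i + Vitamin C. The order of the KO libraries is thus not particular to these loci.

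The comparison of media within WT cells is not independent of how the genes were chosen. WT serum is a side of this contrast and of that between genotypes, and the WT levels were in view at the choice. The member calls are therefore a description, to be read beside the shares over all sites. Each CpG site of the genome with at least 10 reads in both WT libraries was put through a two-sided Fisher's exact test of its reads, and p-values were adjusted over all 628419 sites by the Benjamini-Hochberg method. This compares 2 libraries and not the conditions, and the p-values cover counting error only. A site was called at an adjusted p under 0.05 with a difference of at least 20 points. Of the 42 distinct member sites, 26 were called lower in 2i + Vitamin C and 0 higher, and 41 were lower by some amount. The 42 sites form 7 runs and neighbouring sites share reads, so the calls are not independent. Over all sites 31.8% were called lower and 0.144% higher, and among the 26808 sites that had 40% to 60% methylation in WT serum 79.8% were called lower.

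Mean methylation of the 42 member sites went from 52% in serum to 26.1% in 2i + Vitamin C in WT cells, a difference of -25.8 points, so that 50.3% of the serum level was kept. Over all 628419 sites the mean went from 34.6% to 17.2%, so that 49.9% was kept, close to the member share. The 26808 sites with 40% to 60% in WT serum went from 50.5% to 13.3% and kept 26.4%. Member sites were not limited to that range and ran from 37.5% to 82.4% in WT serum. This is a description, as the difference between member and other sites was not tested. The share kept was 60.3% at Airn, 60% at Meg3, 54.7% at Impact, 42.2% at Plagl1 and 36.5% at Peg10/Sgce.

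All 6 Plagl1 sites were called lower in WT 2i + Vitamin C, with an adjusted p between 0.00224 and 0.00952 (Fisher's exact test). The 12 further Plagl1 sites were too shallow in WT serum to enter the test, with 17.5% of 63 calls methylated. In WT 2i + Vitamin C they ranged from 5.56% to 37%, so the Plagl1 fall holds for the 6 deeper sites only. At Peg10/Sgce 10 of 11 sites were called, where the site that was not called had 15 and 33 reads and an adjusted p of 0.0625. At Airn 5 of 10, at Impact 2 of 5 and at Meg3 3 of 10 sites were called, and the lowest adjusted p was 0.000141, 3.15e-06 and 2.55e-06. Meg3 also had the 1 member site that was higher in 2i + Vitamin C, at -727 bp, where methylation was 50% of 10 reads in serum and 60% of 20 reads in 2i + Vitamin C (Fisher's exact test, adjusted p = 0.982). Around the Meg3 start, WT methylation in 2i + Vitamin C was 34.7% at both -82 and -65 bp and 23% and 22.3% at 26 and 31 bp, and all 4 sites had between 48.1% and 50.8% in serum. The last 2 were called lower and the first 2 were not, with differences of -16.1 and -13.3 points.

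The low methylation in KO cells was then followed up to 20 kb from each 5′ end. Between 1 and 2 kb, 18 sites of Airn and Impact were covered in both genotypes in serum, and 17 of them were at least 20 points lower in KO cells, with means of 40.6% and 2.57% over the 18. In 2i + Vitamin C 15 of 16 such sites were at least 20 points lower. Between 2 and 20 kb, 42 sites were covered in serum and 0 were at least 20 points lower, while 4 were at least 20 points higher, with means of 64.5% in WT and 71.1% in KO cells. Only 1 of 22 such sites in 2i + Vitamin C was at least 20 points lower, and the means were 23.9% and 18.9%.

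**Figure D3:**
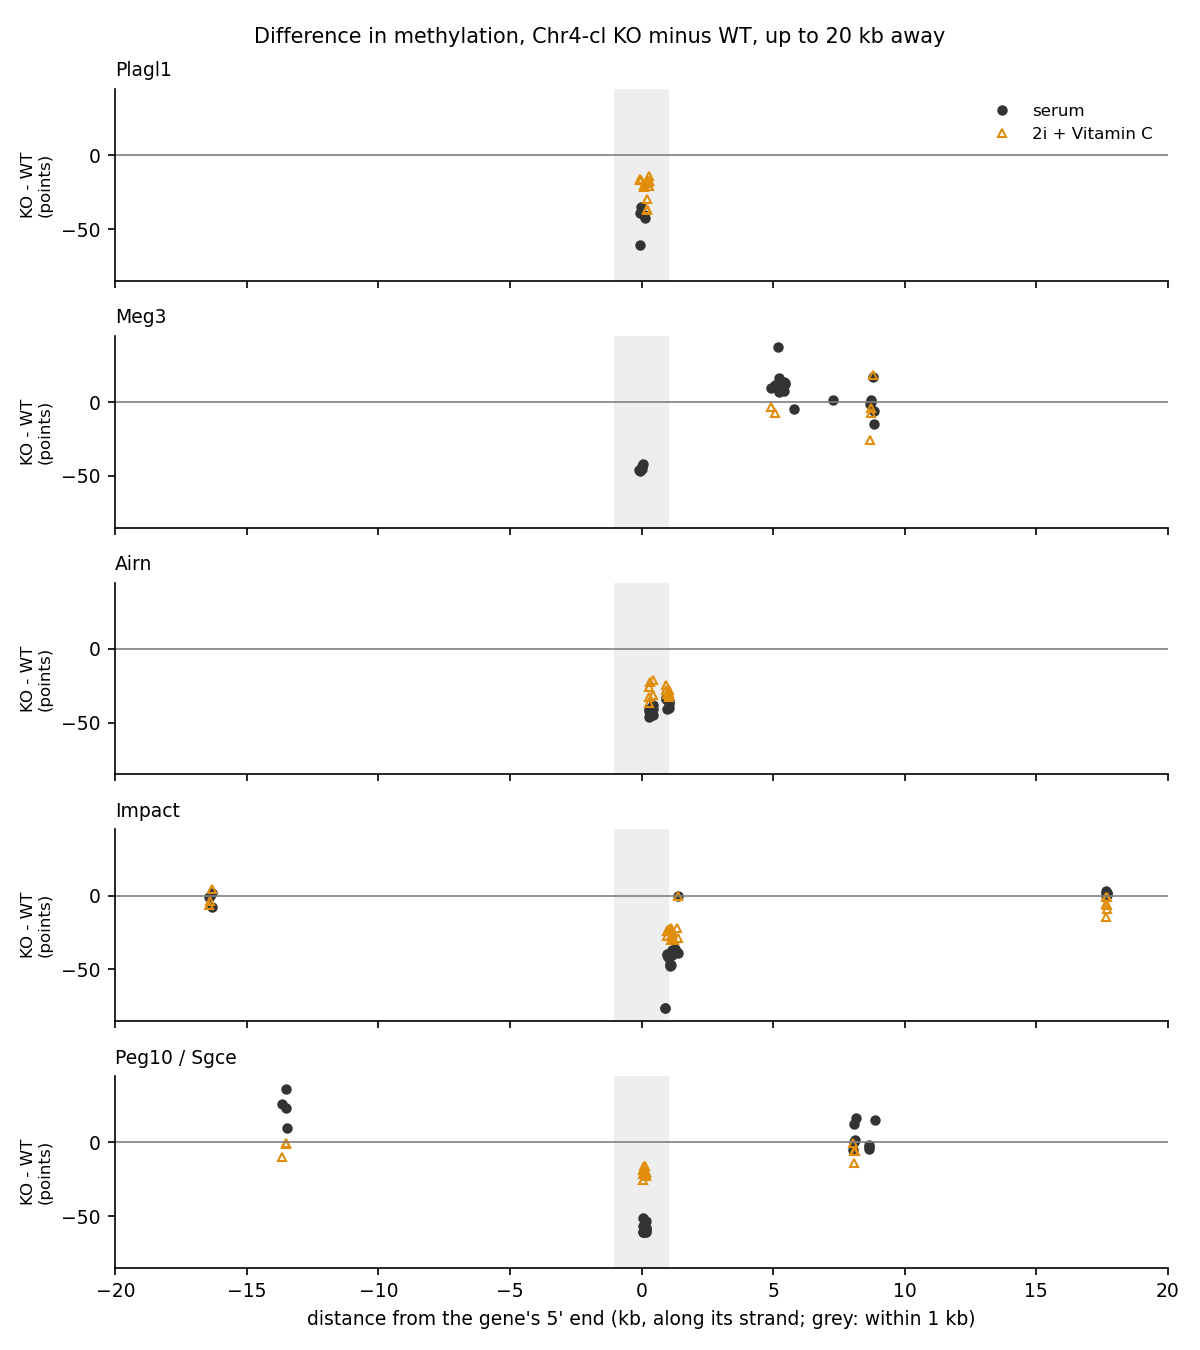
Difference in methylation between Chr4-cl KO and WT cells (percentage points) against the distance from the 5′ end (kb, along the gene's strand), for sites that reached 10 reads in both genotypes, with filled circles for serum, open triangles for 2i + Vitamin C and grey shading within 1 kb. Points within 1 kb lie between -13.8 and -76.5, and beyond 2 kb no serum point is below -14.8.

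At Impact the lower sites ran from 888 to 1367 bp in serum, over 479 bp and 18 sites. The site at 1379 bp marked the edge of what was covered, but it had 0 methylated reads in all 4 libraries (0 of 89, 160, 53 and 129 reads). It thus read as unmethylated in WT cells as well, although the site at 1367 bp had 39.3% in WT serum. Why the 1379 bp site read 0 in every library was not tested. The 6 sites at 17651 to 17696 bp averaged 92.4% in WT and 94% in KO serum, while the 2i + Vitamin C means were 42.9% and 36.7%. Upstream, 4 sites at -16434 to -16321 bp were low in both genotypes, at 5.22% and 3.47% in serum. An annotated 7SK RNA copy starts at -10753 bp from Impact.

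At Meg3 the 5 lower sites spanned 151 bp in serum. The next covered site, at 4908 bp, had 38.7% of 163 reads methylated in WT and 48.3% of 298 reads in KO cells. The 18 sites from 5063 to 8825 bp averaged 70.5% in WT and 77.9% in KO cells. Of these 19 sites 15 were higher in KO cells. The genome-wide mean in serum was also higher in KO (30.5%) than in WT cells (27.4%). No site between 69 and 4908 bp was covered in both genotypes, so the point where low methylation ended was not seen. No site of the region upstream of -82 bp was covered in both genotypes within 20 kb, so the intergenic control region of the locus is not described here. The 1 site beyond 2 kb that was at least 20 points lower in 2i + Vitamin C was at 8675 bp in Meg3, and its values were 54.8% of 42 reads in WT and 29.4% of 17 reads in KO cells. The start of the microRNA gene Mir1906-1 lies 3540 bp downstream of that of Meg3, in this uncovered stretch.

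At Peg10/Sgce the 11 lower sites spanned 134 bp. Downstream of Peg10, 9 sites from 8038 to 8856 bp averaged 80.4% in WT and 84% in KO serum. On the other side, within Sgce, 4 sites from 13385 to 13573 bp downstream of its start averaged 26.1% in WT and 50% in KO serum, each with 12 to 34 reads. The Airn sites spanned 777 bp, and at Airn and Plagl1 no site farther than 2 kb was covered in both genotypes, so the reach of the change could not be measured there.

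The TGCCGC motif (searched on both strands, as TGCCGC and GCGGCA) occurred 6 times within 1 kb of the Plagl1 start and 5 times at Airn. At least as many copies were found at 0.338% and 0.812% of all 37310 gene windows of the same length. Impact, Peg10 and Sgce had 2 copies each, and 12.8% of all gene windows had at least as many. Meg3 had 1, and 34.2% of all gene windows had at least 1. The windows of these genes also held between 43 and 128 CpG sites. The motif itself contains a CpG, and the shares over all gene windows were not matched for the number of CpG sites. Within 2 kb, 2 Impact motifs and 1 Airn motif held a CpG site with at least 10 reads in all 4 libraries. At 1048 bp in Airn (GCGGCA, near the end of the second stretch) methylation was 43.2% in WT and 6.19% in KO serum, while the 2i + Vitamin C values were 30.8% and 0.952%. At 1098 bp in Impact the serum values were 49.6% and 1.91% and the 2i + Vitamin C values 25.4% and 2.97%. At 1367 bp in Impact they were 39.3% and 0.625%, and 30.2% and 1.57%. A match of these letters says nothing of binding.

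Among the other imprinted genes with enough sites, 3 starts were between 20% and 80% in WT serum, all on chromosome 2. These 3 stayed intermediate in KO cells grown in serum. No such start elsewhere was in this range, so this comparison covers chromosome 2 only. Of 9 further imprinted genes listed on chromosome 2 and 50 elsewhere, 6 and 25 had at least 5 sites within 1 kb of the 5′ end in all 4 samples, and of the 6 genes above Plagl1, Airn, Peg10 and Sgce did. On chromosome 2, the start of Nnat, a neuronal proteolipid gene, averaged 53% in WT and 58.4% in KO serum, and that of Nespas, an antisense RNA of the Gnas locus, 63.1% and 67.8%. In 2i + Vitamin C, Nnat had 31.8% and 46.8% and Nespas 44.5% and 61.8%. The third gene between 20% and 80% in WT serum, and the lowest, was Mcts2, with 31.9% and 33.8% in serum. Elsewhere, 24 of the 25 genes were under 20% in WT serum already, among them Trappc9, Copg2, Ppp1r9a and Zdbf2, whose means over sites were between 0.478% and 1.46% in WT and between 0.652% and 1.91% in KO serum. Nap1l5 was high throughout, with 90.6% and 94.2% in serum, while the 2i + Vitamin C means were 73.3% and 68.7%.

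**Figure D4:**
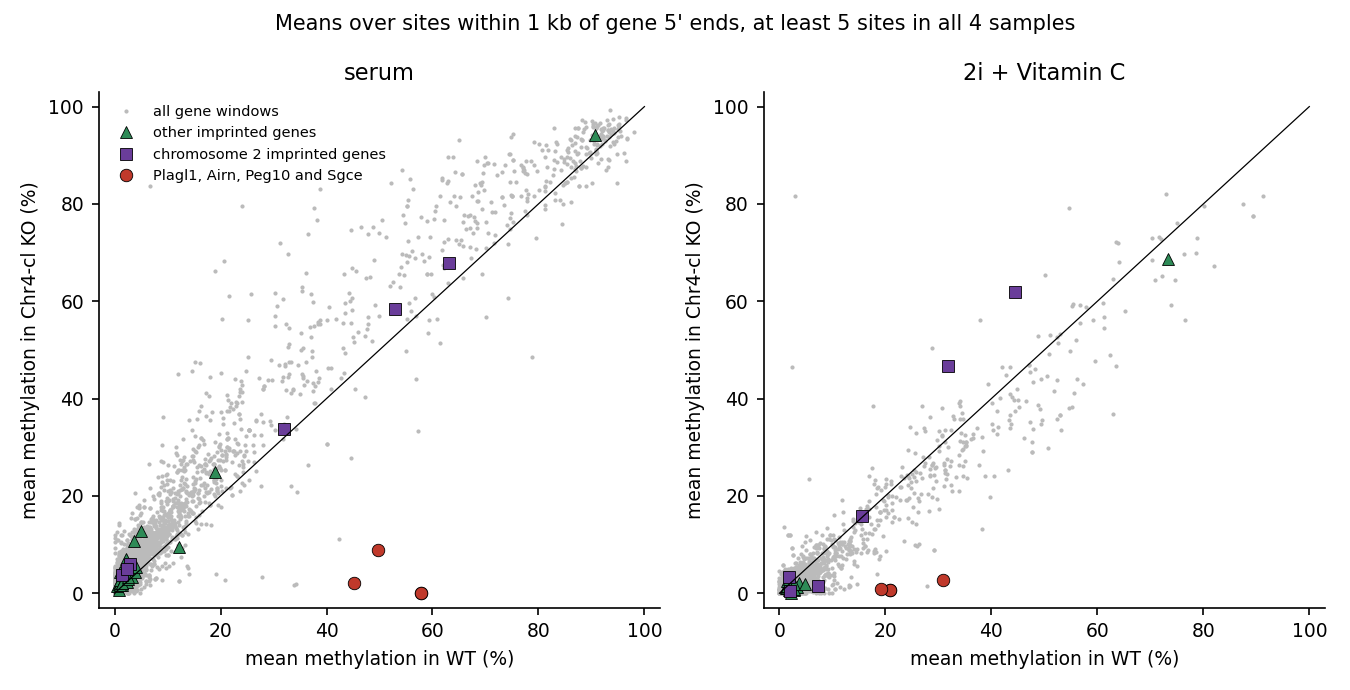
Mean methylation (%) in WT (horizontal axis) and Chr4-cl KO cells (vertical axis) over sites within 1 kb of gene 5′ ends, for 12033 genes with at least 5 sites covered in all 4 samples, with serum on the left, 2i + Vitamin C on the right, red circles for genes of the 6, squares for chromosome 2 and triangles for other imprinted genes, grey points for all genes and a line of equal values. Plagl1, Airn, Peg10 and Sgce (the last 2 at the same point) lie near the bottom, while Nnat and Nespas lie above the line.

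In all, 413 of the 12033 genes had a mean between 20% and 80% in WT serum, and 10 of these were at least 20 points lower in KO serum, including Plagl1, Airn, Peg10 and Sgce. By the Euclidean distance of the 4 sample means from the average of these 4 genes (52.6%, 2.73%, 22.9% and 1.28% in WT serum, KO serum, WT 2i + Vitamin C and KO 2i + Vitamin C), the genes most alike were a U1 snRNA copy on chromosome 3, the lincRNA 1810058I24Rik, Gm12735 and Sfi1, at distances of 22.8, 24.9, 24.9 and 25.6 points over 4 samples. Gm12735 and Sfi1 overlap on chromosome 11. The U1 copy had 42.3% in WT and 11.2% in KO serum, and 1810058I24Rik had 27.8% and 3.32%. The other 6 of the 10 nearest, Gm16206, Cyp2j6, Gm11615, Gm15247, Gm7931 and Nkx2-5, were between 31.4 and 35.1 points away, and their KO serum means were between 20.8% and 33.3%.

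Many imprint control regions lie away from the annotated 5′ end, so sites with 40% to 60% methylation in WT serum were also counted over whole gene bodies of the listed genes. Of 10 further genes with at least 5 such sites, 7 had 0 sites at or below 10% in KO serum, among which Nnat and Blcap share the same 10 sites. At Gnas, 41 such sites averaged 47.9% in WT and 50.9% in KO serum, and at Mest, a paternally expressed hydrolase gene, 10 sites averaged 53.2% and 48.4%. Kcnq1 had 55.2% and 55.6% at 10 sites, and Snrpn had 47.3% and 35.9% at 6 sites. The 3 genes with sites at or below 10% were Igf2r, with 8 of 14 sites that it shares with Airn, and 2 genes that are not among the 6. At Grb10, a growth inhibitor, 25 of 28 sites were at or below 10% and the means were 52.2% and 6.63%. At Inpp5f, a phosphatase gene, 10 of 12 were, with means of 44.2% and 8.71%. Across all sites, 14322 had 40% to 60% in WT serum and 10 reads in every library. Of these, 85 (0.593%) were at or below 10% in both KO samples. Among the 85, 16 were member sites, a count set by how the genes were chosen. The 0.593% needs both KO samples, so it is not the matching share for the gene body counts, which used KO serum alone.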

How the data were processed

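RRBS-seq reads of 4 libraries were trimmed with Trim Galore and mapped to mm9 with Bismark, and both strands of each CpG dyad were merged by the authors (versions are not given in the sources used here). For each CpG site the deposited tables hold 2 counts, all reads and methylated reads, and their ratio as a fraction, without normalization. Those of WT serum and KO 2i + Vitamin C are 2 tables joined end to end, and 332 and 830 rows at repeated positions were left out. Counts summed to 70149313 (WT serum), 88376738 (KO serum), 90649194 (WT 2i + Vitamin C) and 42684672 (KO 2i + Vitamin C).

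Methylation was methylated over all reads at sites with at least 10 reads, as in the study's methods, averaged with each site counted once. Positions are those of the C in mm9. Precision is given as 95% Wilson intervals or, at 0 methylated reads, as the share that 3 reads would make. Both cover counting error only, since PCR duplicates were not identified and single libraries show no spread between cultures. Differences between KO and WT cells were not tested. WT media were compared by two-sided Fisher's exact test per site with Benjamini-Hochberg adjustment, which was checked on simulated data.

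The 6 genes and the gene lists were chosen with earlier results of these data known. Further genes named are those with the 4 highest and 4 lowest KO means in the lists, and the 10 most alike to the 4 of the 6 genes with at least 5 sites in all samples. The gene body counts, the motif search and the search for sites with the same pattern were added after values were seen. Alternatives were minimums of 5 and 20 reads, pooled reads, sites covered in all 4 samples, windows of 500 bp and 2 kb, omission of the 0.1% most deeply covered sites, other cut-offs, thinned reads and, added later, each run of sites counted once and, in serum, omission of Meg3. The software was Python 3.11.15, scipy 1.17.1, pandas 2.3.3, numpy 2.4.6, numba 0.67.0, pysam 0.24.0 and matplotlib 3.10.9.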

Additional observations from a re-analysis of the deposited data

How the results depend on the processing

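With 1 library per condition, no value has a replicate check, and no replicate could be left out. No paired analysis was possible because the labels carry no replicate numbers that pair samples. The direction of every difference between KO and WT cells at the 6 genes was kept under each alternative run. At the member sites together, the difference in serum was -48.6 points, and it was -43.2 with a coverage minimum of 5 reads, -43.5 with pooled reads and -49.2 without Meg3. In 2i + Vitamin C it stayed between -22.2 and -24.4 points. In 2i + Vitamin C, 24 of 37 sites were at least 20 points lower in KO cells. This was 37 of 54 sites with a minimum of 5 reads and 39 of 53 with a window of 2 kb. With cut-offs of 10 and 30 points it was 37 of 37 and 6 of 37. The share over all sites is given above only for the main setting. The difference between the media in WT cells was -25.8 points, and -20.5 with a minimum of 5 reads. There 26 of 42 sites were called lower. Over the alternatives this ran from 20 of 27 (sites covered in all 4 samples) to 30 of 60 (window of 2 kb). Plagl1 changed most by gene, from -43.1 to -26.9 points in serum with a minimum of 5 reads, which adds sites with 6 reads in WT serum. For Impact in serum the values ran from -39.7 points with a minimum of 20 reads, which leaves out 2 sites with 17 reads, to -55.3 points. Depth limits Meg3, which could not be compared in 2i + Vitamin C.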

Other observations

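A search of all sites, chosen after the values above had been seen, looked for the same pattern elsewhere. Of 14322 sites with 40% to 60% methylation in WT serum and at least 10 reads in all 4 samples, 85 (0.593%) were at or below 10% in both KO samples. Grouped where no more than 5000 bp apart, they formed 29 groups, of which 19 were single sites and 8 held at least 3 sites. These 8 groups held 62 of the 85 sites, and 4 of them were at Impact, Airn, Peg10 and Plagl1. The largest, with 17 sites on chromosome 11 from 11925631 to 11926176, lay in Grb10, 12889 bp downstream of its annotated 5′ end. In serum the WT mean was 52.6% and the KO mean 4.16%, and with 2i + Vitamin C they were 21.9% and 0.991%, with median coverages of 349, 371, 280 and 17 reads.

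The other 3 groups were not in the imprinted gene lists. On chromosome 6, 5 sites from 47974633 to 47975302 in Zfp777, a zinc finger gene, averaged 47.2% in WT and 4.25% in KO serum, while the 2i + Vitamin C means were 19.9% and 1.5%. At 8 sites from 48579584 to 48579621 on the same chromosome, in AI854703, the WT and KO means were 40.9% and 8.26% in serum. In 2i + Vitamin C they were 7.51% and 1.04%, so WT cells were already low in that medium. The median coverage was 776 reads in WT serum and 1708 in KO serum, but 632 in WT and 36 in KO 2i + Vitamin C. At the start of Sfi1 on chromosome 11, 6 sites from 3093351 to 3093631 averaged 45.3% and 2.81% in serum, while the 2i + Vitamin C means were 7.85% and 1.35%, with median coverages between 532 and 1081 reads. Each value comes from 1 library, and none of these differences was tested. At Inpp5f, 2 sites on chromosome 7 from 135831605 to 135831722 averaged 44% in WT and 2.85% in KO serum.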
